A study of Mus musculus with 3 samples.

Results

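Iron storage and transport genes were followed in single-nucleus RNA sequencing (snRNA-seq) of the mouse lumbar spinal cord. The group is 9 genes of 31040 in the table, taken by symbol: the ferritin chains Fth1 and Ftl1, transferrin (Trf), its receptor Tfrc, the iron transporters Slc11a2 and Slc40a1, the ferroxidase ceruloplasmin (Cp), and the iron sensors Aco1 and Ireb2. The rule names them by symbol, and all 9 were found. Nuclei came from 12 mice aged 90 days, 3 females and 3 males of each genotype. SOD1G93A mice of the strain B6.Cg-Tg(SOD1*G93A)1Gur/J carry many copies of a transgene for human SOD1 with a mutation of familial amyotrophic lateral sclerosis, and the wild-type (WT) controls were their C57BL/6J littermates. Each of the 3 pools, A, B and C, held 1 mouse of every sex and genotype, and hashtag antibodies on the nuclei told the mice apart.

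Cells take up iron mainly as transferrin bound to the transferrin receptor (Tfrc), and Slc11a2 (DMT1) moves it from the endosome into the cytosol. Iron that is not used is stored in ferritin, a shell of heavy chains (Fth1), which oxidise iron, and light chains (Ftl1), which help it to mineralise. Ferroportin (Slc40a1) is the exporter, and ceruloplasmin (Cp) oxidises the exported iron so that transferrin can bind it. Aco1 (IRP1) and Ireb2 (IRP2) are RNA-binding proteins that, when iron is scarce, hold iron-responsive elements in messenger RNAs, blocking translation from elements in the 5′ UTR and protecting the RNA from elements in the 3′ UTR. In the spinal cord, endothelial cells pass iron from the blood, and oligodendrocytes and astrocytes are among the cells that store it.

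Elements through which the sensors hold these messenger RNAs are shown for the members in which a strict form of the motif was found. Each of the following sites is 29 bases of the RNA strand, 5′ to 3′, from the GENCODE vM21 transcripts (GRCm38, which is mm10), with the 6-base loop in capitals.

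Fth1, 5′ UTR, chr19:9982732-9982760, plus strand: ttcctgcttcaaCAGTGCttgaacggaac
Ftl1, 5′ UTR, chr7:45459779-45459807, minus strand: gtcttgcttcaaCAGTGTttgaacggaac
Slc40a1, 5′ UTR, chr1:45925465-45925493, minus strand: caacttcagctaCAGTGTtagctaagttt
Tfrc, 3′ UTR, chr16:32631219-32631247, plus strand: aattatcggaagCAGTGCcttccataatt
Tfrc, 3′ UTR, chr16:32631598-32631626, plus strand: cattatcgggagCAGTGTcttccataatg
Tfrc, 3′ UTR, chr16:32631663-32631691, plus strand: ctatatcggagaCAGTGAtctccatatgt
Tfrc, 3′ UTR, chr16:32631710-32631738, plus strand: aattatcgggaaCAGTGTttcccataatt

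The sites were found as an unpaired C, 5 bases, the loop CAGTGN and 5 bases that pair with the first 5 (G with T allowed), searched on the transcript strand. In this form the motif was in the 5′ UTR of 31 of 20736 genes (0.149%), 3 of them among the 9 members, and in the 3′ UTR of 129 of 20859 genes (0.618%), of which Tfrc is the member, with 4 sites. The other members held no match to these letters, which does not show that they lack an element: some Slc11a2 transcripts are known to carry one in the 3′ UTR. In the same annotation the genes span chr19:9980598-9985098 (Fth1, plus strand), chr7:45457944-45459884 (Ftl1, minus), chr16:32608920-32632794 (Tfrc, plus), chr15:100387898-100425072 (Slc11a2, minus), chr1:45908068-45926523 (Slc40a1, minus), chr3:19957054-20009145 (Cp, plus), chr4:40143081-40198338 (Aco1, plus) and chr9:54863789-54912530 (Ireb2, plus). UMIs counted here report transcripts in nuclei, so they do not measure translation through these elements.

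The 14662 nuclei hold 206486779 UMIs (unique molecular identifiers, which tag single captured RNA molecules), between 6411715 and 36668441 per mouse. They fall into the 10 cell types of the authors, and 15 cell barcodes occurred in more than 1 pool. Ependymal nuclei came from 11 mice and fibroblasts from 10, with 208 and 102 UMIs of Fth1 in all, so values of these types are given for completeness. The labels were checked with 3 markers per type. Flt1 stood at 4776 in endothelial nuclei, Aqp4 at 911 in astrocytes, Mog at 599 in oligodendrocytes and Chat at 154 in motor neurons, each at its highest among the 10 types. Microglial nuclei held Cx3cr1, Csf1r and Ptprc at only 33.6, 18.7 and 22.3 CPM (UMIs of the gene per 1000000 UMIs of the class, here over all its nuclei), beside 262 for the oligodendrocyte gene Mog and 214 for the neuronal gene Grin1. In the nuclei that the authors labelled as Schwann and meningeal, a mixed class by their own description, the Schwann gene Prx stood at 2.22 and the oligodendrocyte gene Mog at 138 CPM. How far RNA of other cells sets the values in these 2 types was not tested.

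Levels by cell type are CPM of that type in a mouse, given as mean ± SD over mice. They were not tested, because the types were clustered on expression in the same nuclei, to which these genes may have contributed. They compare 1 gene between types, not genes with each other, since UMIs were not corrected for length. Fth1, the heavy chain, had 68298 UMIs in all and was detected in 83.5% of nuclei. Its level was 3751 ± 1292 (n = 12) in Schwann and meningeal nuclei, 1645 ± 466 in astrocytes and 905 ± 288 in endothelial cells. Schwann and meningeal nuclei exceeded astrocytes, and astrocytes exceeded endothelial cells, in 12 of 12 mice. Oligodendrocytes had 454 ± 95.3, OPCs (oligodendrocyte precursors) 326 ± 245, microglia 166 ± 71.4, neurons 162 ± 38.6 and motor neurons 111 ± 72.8. Microglia exceeded neurons in 6 of 12 mice, so their order is within the spread, and neurons exceeded motor neurons in 10 of 12. Among the 9 neuron classes of the authors, Fth1 ranged from 115 ± 46.9 in ventral inhibitory (VI) to 214 ± 54.0 in dorsal excitatory (DE) neurons.

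**Figure D1:**
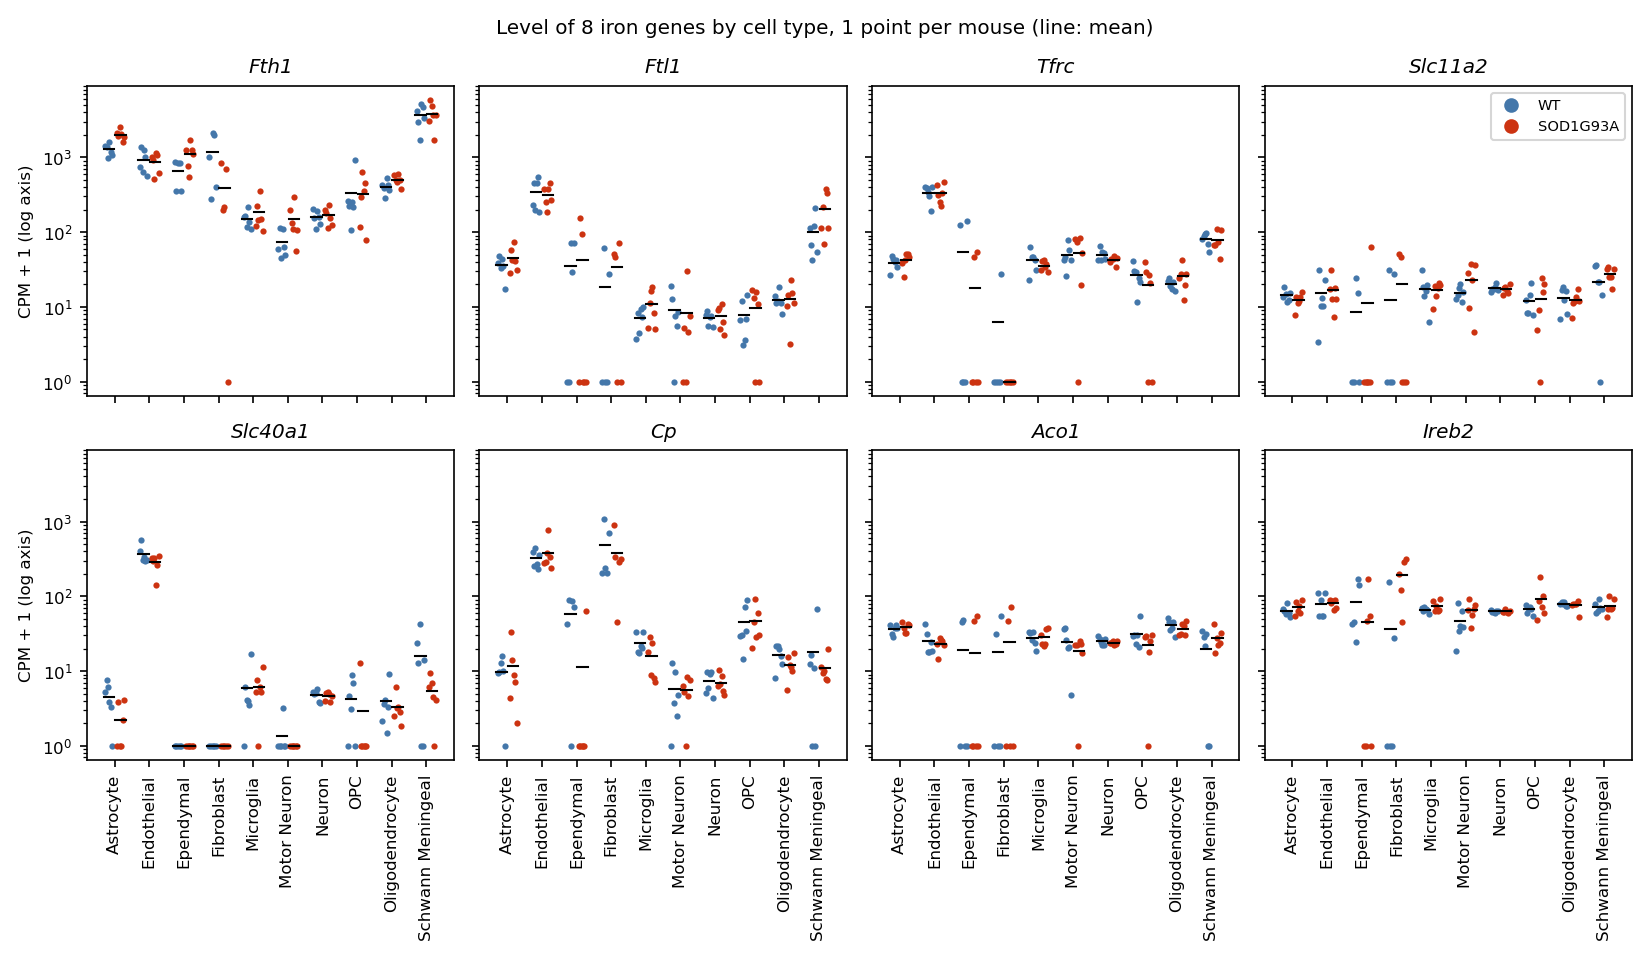
CPM plus 1 (log axis) of 8 iron genes in the 10 cell types, 1 point per mouse, WT in blue and SOD1G93A in red, with the mean of each genotype as a black line. Slc40a1 lies at 326 in endothelial cells against at most 9.61 elsewhere on average, while Ireb2 and Aco1 have no type that stands apart.

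Ftl1, the light chain, had another order, with 330 ± 126 in endothelial cells, 152 ± 109 in Schwann and meningeal nuclei and 40.0 ± 14.4 in astrocytes, an order that held in 12 of 12 mice. It was 11.7 ± 4.97 in oligodendrocytes and 6.34 ± 2.08 in neurons. These values are uncertain, since a near-identical gene on chromosome 13, Ftl1-ps1 (annotated as protein coding), is identical to Ftl1 in 906 of 910 aligned bases and in 297 of the last 300 bases, where 3′ libraries read. The copy received 0.487 UMIs per Ftl1 UMI in endothelial cells, 0.459 in astrocytes and 0.446 in neurons. The counts of the 2 genes are separate, but Cell Ranger does not count reads that fit both. How many Ftl1 reads were lost in this way or went to the copy was not tested. Ribosomal protein genes (79 by symbol) had the same order of types in WT mice. Their medians were 13491 CPM in endothelial cells, 7891 in Schwann and meningeal nuclei, 2240 in astrocytes, 800 in oligodendrocytes and 655 in neurons. What this shares with the order of Ftl1 was not tested.

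The transferrin receptor Tfrc stood apart in endothelial cells. Its level there was 338 ± 86.0, from 192 to 472 over the 12 mice, against 78.9 ± 21.0 in Schwann and meningeal nuclei, the next type, where the highest mouse had 110.5. The ranges did not overlap. Motor neurons (49.5 ± 26.3), neurons (45.2 ± 8.07), astrocytes (39.9 ± 8.62) and microglia (38.0 ± 10.7) followed, and neighbours in this order exceeded each other in 7 to 8 of 12 mice. Oligodendrocytes had 21.9 ± 7.65. Within neurons, Tfrc was 33.5 ± 6.95 in dorsal excitatory and 63.2 ± 19.8 in ventral inhibitory neurons, the reverse of the order of Fth1 between these classes. Slc11a2, the endosomal and plasma membrane iron transporter, lay between 11.3 ± 7.08 in OPCs and 23.6 ± 10.3 in Schwann and meningeal nuclei among the types with nuclei in every mouse, and with TMM factors over all types it was highest in neurons.

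The exporter Slc40a1 was also highest in endothelial cells, by a wider margin. Endothelial cells had 326 ± 95.6 CPM, from 143 to 558, and the next type, Schwann and meningeal nuclei, had 9.61 ± 12.1 with a highest mouse of 41.8. In nuclei, 74.5% of 501 endothelial nuclei held a Slc40a1 UMI, against 1.22% of 1555 astrocyte nuclei at median depths of 6963 and 5338 UMIs. Endothelial nuclei, 501 of 14662, carried 67.6% of all Slc40a1 UMIs. Ependymal nuclei and fibroblasts had none, and their totals of 252050 and 214721 UMIs allow up to 11.9 and 13.97 CPM (3 counts).

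Ceruloplasmin, Cp, shared the endothelial high, with 353 ± 146 there and 428 ± 339 (n = 10) in fibroblasts, the latter from 111 UMIs in 46 nuclei. Fibroblasts exceeded endothelial cells in 5 of 10 mice, so the 2 cannot be ordered. OPCs followed at 44.6 ± 26.3, with a highest mouse of 90.2 that lay below the lowest endothelial value of 234. Astrocytes had 9.77 ± 8.49 and neurons 6.18 ± 2.15. The pericyte gene Pdgfrb stood at 183 CPM over the endothelial nuclei, and these were not divided further here.

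Neither sensor had a type that stood apart. Aco1 ran from 20.5 ± 10.7 in motor neurons to 37.8 ± 7.61 in oligodendrocytes among types with nuclei in every mouse. In the same types Ireb2 ran from 54.9 ± 22.0 in motor neurons to 78.5 ± 19.9 in endothelial cells, and over the 9 neuron classes from 59.9 ± 19.5 to 67.3 ± 17.5. Neighbours in the order of Ireb2 exceeded each other in 4 to 9 of 12 mice among the 8 full types. Among these 8 types the highest was not stable for these genes, since Ireb2 was highest in oligodendrocytes with TMM factors over all types and as a mean over single nuclei, and Aco1 in astrocytes as a mean over single nuclei. Outside them, the mean over single nuclei of Ireb2 was 107 in fibroblasts and 86.5 in ependymal nuclei, against 81.2 in oligodendrocytes.

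Trf, the iron carrier, which oligodendrocytes are known to make, had 8 UMIs in the whole table, 5 of them in oligodendrocytes, 2 in neurons and 1 in endothelial cells. In GENCODE vM21 the gene (chr9:103204001-103230444, minus strand) is covered over 99.5% of its length by Gm20425 (chr9:103190208-103230307), a gene model on the same strand that had 3 UMIs. Cell Ranger does not count reads that fit 2 genes, and the annotation used by the authors is not given in the sources used here. These counts are too few to read a level or difference of Trf. None of the other 8 members is overlapped by a gene on its own strand.

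For each member, the 3 genes with the most similar pattern were sought over 96 sums of a mouse and a type (8 types with nuclei in every mouse) among 12743 genes, as a description of points that share types and libraries. Fth1 was closest to Camk2n1 (r = 0.93), Cd81 (0.93) and Apoe (0.91), and Ftl1 to the ribosomal protein genes Rps15 (0.93) and Rps4x (0.92) with Jund (0.92). Slc40a1 was closest to Slc22a8 (0.89), Srgn (0.89) and Tnfsf10 (0.89), Tfrc to Hmgb1 (0.85), Usp46 (0.85) and Cpne3 (0.84), and Cp to Lims2 (0.88), St3gal6 (0.85) and Arhgap31 (0.84). Aco1 was closest to Fam210a (0.83), Edc3 (0.82) and Wipf2 (0.82), Slc11a2 to Stip1 (0.74), Cd99l2 (0.73) and Kif1bp (0.69), and Ireb2 to Bclaf1 (0.57), Fmr1 (0.57) and Gabpa (0.56). Between members, r was highest for Fth1 with Ftl1 (0.75), Ftl1 with Tfrc (0.73) and Slc40a1 with Cp (0.71).

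The main question of the design was the effect of genotype. Fth1 was higher in SOD1G93A than in WT astrocytes, and it was the only one of the members to change by genotype in any cell type at a false discovery rate (FDR) under 0.1. The 6 WT mice had 1110, 1192, 1239, 1366, 1472 and 1667 CPM, scaled with the library factors of the test, and the 6 SOD1G93A mice had 1648, 1866, 1987, 2062, 2094 and 2405. The groups overlapped by a single pair of mice, as 5 of 6 SOD1G93A mice lay above the highest WT mouse. The mean was 2010 ± 252 (SD, n = 6) in SOD1G93A and 1341 ± 205 in WT astrocytes. The log2 fold change was 0.58 (SE 0.11, 95% confidence interval 0.37 to 0.80, limma FDR = 0.00537).

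The difference was in the same direction in 6 of 6 pairs, each a SOD1G93A and a WT mouse matched for sex within a pool. It was 0.51 in females and 0.31 in males of pool A, 0.54 and 0.41 in pool B, and 1.12 and 0.65 in pool C (log2). The estimate was 0.72 (SE 0.15, limma FDR = 0.0907) in females and 0.45 (SE 0.15, limma FDR = 0.265) in males, and their difference of -0.27 (male minus female, SE 0.21) had an FDR of 1.00 in limma. In astrocytes, 214 of 9347 genes, 2.29%, were called, against 1 of the 6 members tested there. The other 5, Ftl1, Tfrc, Slc11a2, Aco1 and Ireb2, had log2 fold changes between -0.21 and 0.27.

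**Figure D2:**
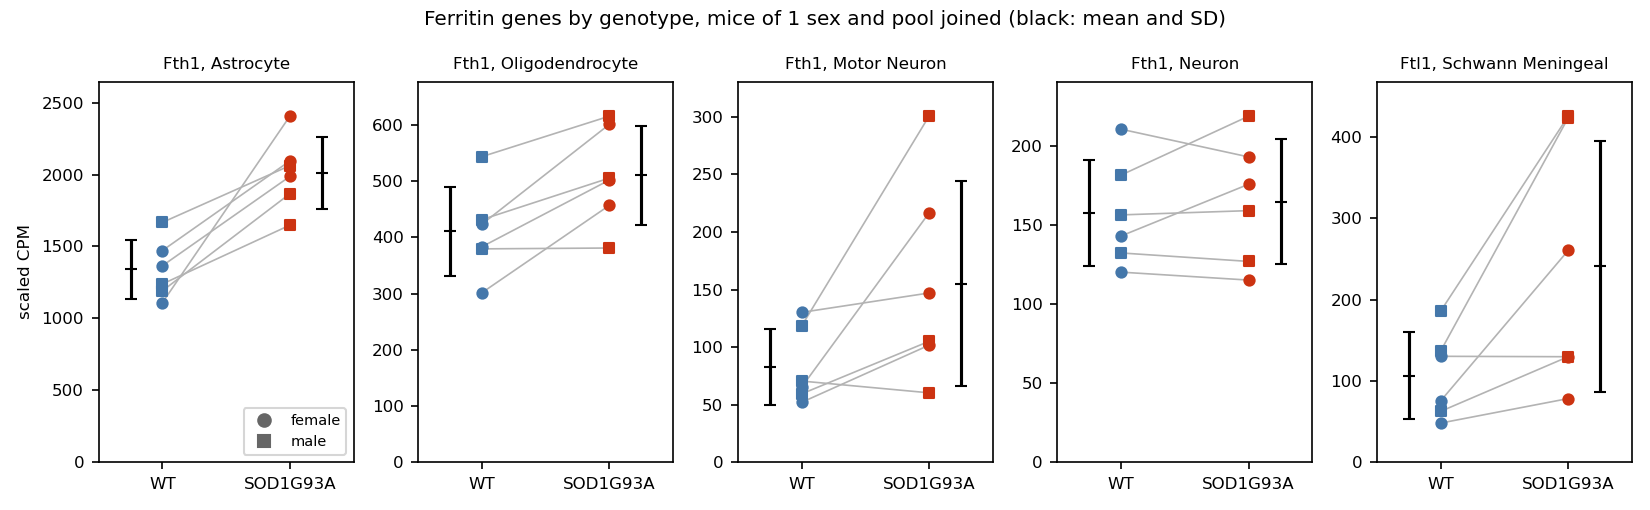
Scaled CPM of Fth1 in 4 cell types and of Ftl1 in Schwann and meningeal nuclei, 1 point per mouse, circles for females and squares for males, with lines joining the mice of the same sex and pool and the mean ± SD in black. In astrocytes all 6 lines rise, from 1110-1667 in WT to 1648-2405 in SOD1G93A, while in neurons the 2 groups overlap.

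Within the 5 sub-clusters into which the authors divided the astrocytes, Fth1 was not called. The log2 fold changes were 0.05 (95% confidence interval -0.18 to 0.28) in sub-cluster 0, 0.20 (-0.18 to 0.58) in 1, -0.14 (-0.72 to 0.44) in 2, 0.04 (-0.18 to 0.25) in 3 and -0.01 (-0.38 to 0.36) in 4, with limma FDR from 0.906 to 0.997. The upper bounds of these 5 intervals lay below the estimate for all astrocytes, that of sub-cluster 1 only just (0.582 against 0.584). The estimate for all astrocytes had an interval of 0.37 to 0.80, and the intervals of sub-clusters 1 and 2 reached into it. The estimates within sub-clusters average the sexes, which differed in sign in 3 sub-clusters. Fth1 was -1.09 in females and 0.81 in males in sub-cluster 2, 0.29 and -0.22 in 3, and 0.38 and -0.40 in 4. The differences between the sexes had unadjusted p of 0.0034, 0.023 and 0.038 in limma, with FDR of 0.816, 0.556 and 0.994, so none passed. The sub-clusters themselves differed widely in Fth1. Over the 12 mice, its level was 426 ± 135 CPM in sub-cluster 1, 482 ± 223 in 2, 1495 ± 339 in 0, 3011 ± 473 in 3 and 5163 ± 1375 in 4.

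The sub-clusters held different shares of the astrocyte UMIs in the 2 genotypes. Sub-cluster 1, low in Fth1, held 35.2% ± 7.27 in WT and 12.4% ± 5.01 in SOD1G93A mice. Sub-clusters 3 and 4, high in Fth1, held 10.5% ± 3.64 and 6.63% ± 5.30 in WT and 21.1% ± 10.3 and 16.8% ± 11.4 in SOD1G93A mice. By pairs, the share of sub-cluster 1 was lower in SOD1G93A in 6 of 6 and that of 3 higher in 6 of 6, while that of 4 was higher in 3 of 6 and lower in the other 3. These shares are a description, since the sub-clusters were formed from expression in the same nuclei. Fth1 and other genes that differ by genotype may have contributed, so a difference in level can appear as a difference in sub-cluster.

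To put the 2 together, a Fth1 level was computed for each mouse with the sub-clusters weighted by the mean mix of the 12 mice. With the mix as measured and no library factors, the log2 difference over the 6 pairs was 0.67 ± 0.36 (SD) and positive in 6 of 6, given with no test since the pairs had been seen. With the mix held, the WT mice ranged from 1462 to 2029 and the SOD1G93A mice from 1579 to 2008 CPM. The log2 difference was then 0.03 ± 0.26, positive in 4 of 6 pairs. It is given with no test since the sub-clusters were formed on expression in the same nuclei, to which Fth1 may have contributed. With the levels of the sub-clusters held at the mean of the mice and the mix as measured, it was 0.67 ± 0.44 and positive in 6 of 6 pairs, given with no test since it follows from the shares. The comparison was chosen after the data were seen. Holding the mix of sub-clusters formed on expression in the same nuclei can also remove a difference in level, so it cannot tell level from mix.

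**Figure D3:**
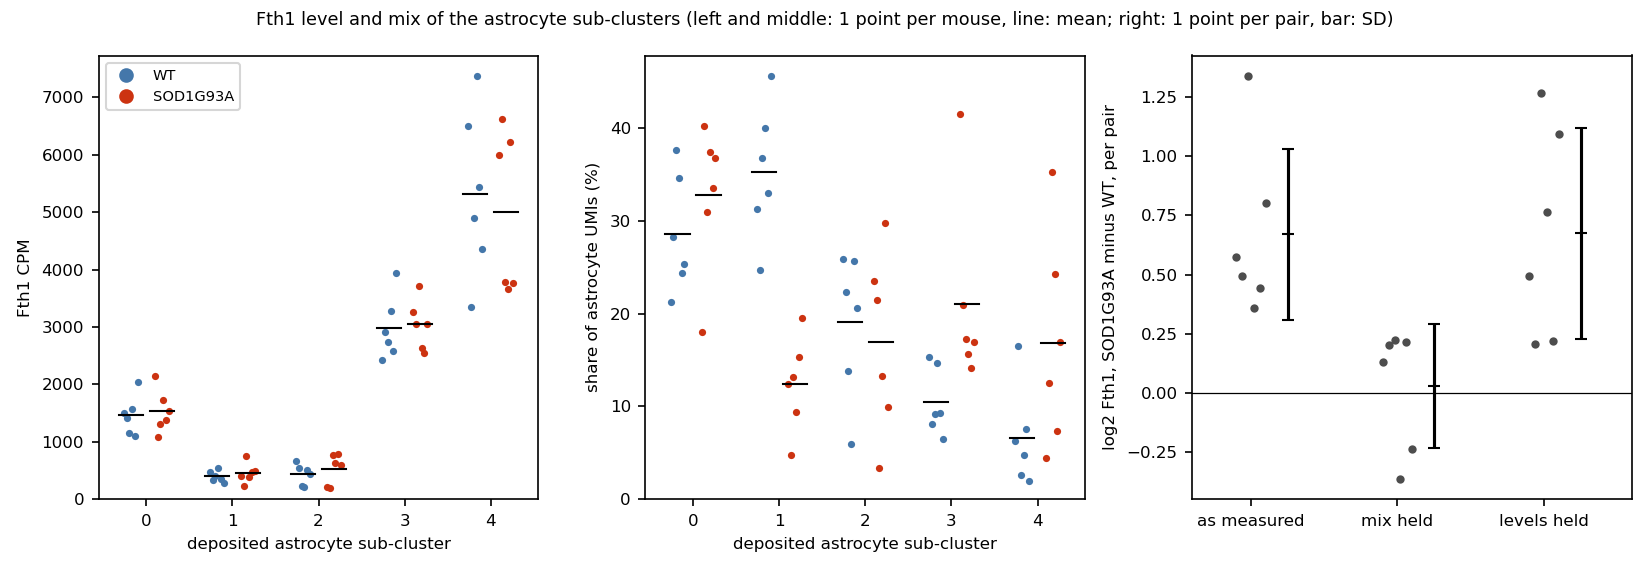
Fth1 CPM in the 5 deposited astrocyte sub-clusters (left) and their share of astrocyte UMIs in percent (middle), 1 point per mouse with the mean as a line, and the log2 difference of Fth1 per pair of mice as measured, with the mix of sub-clusters held and with their levels held (right, mean ± SD). WT and SOD1G93A points overlap within each sub-cluster, the share of sub-cluster 1 goes from 35.2% to 12.4%, and the mean difference of 0.67 as measured is 0.03 with the mix held. The sub-clusters were formed on expression in the same nuclei, to which Fth1 may have contributed, so holding their mix can also remove a difference in level.

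Other measures also differed between the sub-clusters, and some of them by genotype. The astrocyte reactivity gene Gfap had 69.9 and 79.5 CPM in sub-clusters 1 and 2, 313 in 0, 1303 in 3 and 610 in 4, and Ftl1 ran from 10.8 in 2 to 111 in 4. Ribosomal protein genes (79 by symbol) took 1093 and 7962 CPM in sub-clusters 1 and 4, and mitochondrial UMIs 0.57% and 5.67% of a nucleus on average. Tfrc, Aco1 and Ireb2 stayed within 34.1 to 51.5, 28.7 to 43.4 and 62.6 to 77.5. Over all astrocytes, the mean mitochondrial share per mouse was 1.34% to 1.84% in WT and 2.20% to 2.82% in SOD1G93A mice, and ribosomal protein genes took 1663 to 2879 and 2293 to 4086 CPM. The 3 astrocyte markers summed to 867 to 1122 in WT and 1672 to 2225 in SOD1G93A mice. The part of these in the difference of Fth1 was not tested beyond the following fit. In astrocyte nuclei with at most 1% mitochondrial UMIs, Fth1 had a log2 fold change of 0.69 (SE 0.21, against 0.11 in the main fit). The limma FDR was 0.173 over 6684 genes, so it was not called. This alternative was chosen after the data were seen. The mean mitochondrial share was also 1.09% in sub-cluster 2, 1.96% in 0 and 2.47% in 3, so the filter may change the mix of sub-clusters.

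Over all 10 cell types, the members passed the filter on low counts in 47 combinations of gene and type, Fth1 in 10 types, Ireb2 in 8, Tfrc in 7, Cp in 6, Ftl1 and Aco1 in 5, Slc11a2 in 4, Slc40a1 in 2 and Trf in none. Of these 47, 1 was called for genotype (2.13%), against 392 of 68984 gene tests (0.568%), and 1 call is too few to set the shares apart. At an unadjusted p under 0.05 limma had 7 of the 47 (14.9%), against 7.18% of all gene tests, and these shares were not tested against each other. The median log2 fold change of the 47 was -0.01, and 22 were above 0. edgeR and DESeq2 each called 1 of 47 as well, Fth1 in astrocytes. Leaving out 1 mouse moved 43 of the 47 values by over 1.5 times. The exceptions were Fth1 in astrocytes and oligodendrocytes, Cp in oligodendrocytes and Ftl1 in Schwann and meningeal nuclei. This count is relative to the estimate, so a value near 0 counts as moved after a small shift. Ireb2 in neurons, at -0.002 with -0.027 to 0.033 when 1 mouse was left out, is such a case.

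**Figure D4:**
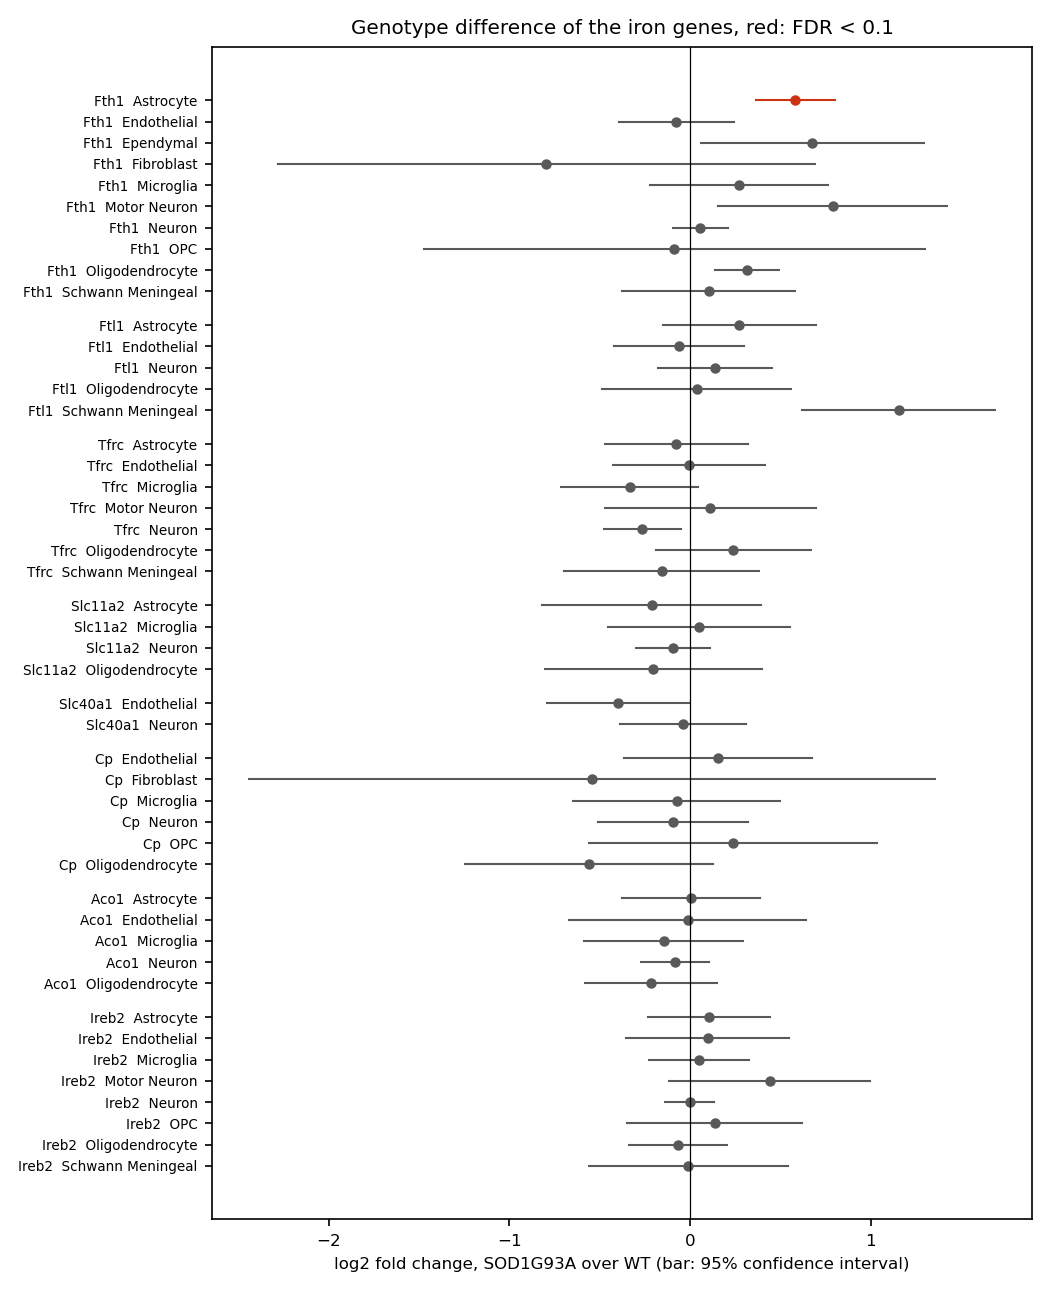
Log2 fold change of SOD1G93A over WT with its 95% confidence interval for the 47 combinations of member and cell type that were tested, grouped by gene. Fth1 in astrocytes, at 0.58, is the point in red (FDR under 0.1), and most intervals of the other genes include 0.

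Fth1 in the other cell types gave values that did not pass. In oligodendrocytes the WT mice had 302 to 543 scaled CPM (median 403) and the SOD1G93A mice 381 to 615 (median 504). The groups overlapped, but the SOD1G93A mouse was higher in 6 of 6 pairs. The log2 fold change was 0.32 (SE 0.08, limma FDR = 0.661). Without library factors, the log2 difference was 0.33 ± 0.25 over the 6 pairs as measured and 0.34 ± 0.31 with the mix of sub-clusters held, both positive in 6 of 6 pairs. These are given with no test, since the quantity was chosen after the pairs were seen.

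In motor neurons, which had 438 Fth1 UMIs in 67 nuclei, WT mice had 52.2 to 130 (median 68.0) and SOD1G93A mice 60.4 to 301 (median 126), with 5 of 6 pairs higher in SOD1G93A. The log2 fold change was 0.79 (SE 0.30, limma FDR = 0.201). It was called when the WT female of pool B (1.16, FDR = 0.0312) or the SOD1G93A male of pool B (1.03, FDR = 0.0284) was left out of the limma fit. Leaving out other single mice gave values down to 0.52, without the WT female of pool A, and FDR up to 0.389, without the SOD1G93A male of pool A. The mean mitochondrial share had medians of 0.17% in WT and 1.76% in SOD1G93A motor neurons. Ribosomal protein genes took 259 to 448 CPM (median 359) in WT and 325 to 1153 (median 475) in SOD1G93A motor neurons, and the oligodendrocyte genes Mog and Mag together 0 to 115 (median 17.98) and 0 to 97.5 (median 50.2). The part of these was not tested beyond the fit to nuclei with at most 1% mitochondrial UMIs, where the log2 fold change was 0.38 (SE 0.34). In neurons, with 24016 Fth1 UMIs, the log2 fold change was 0.06 (95% confidence interval -0.10 to 0.21).

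In the remaining types the log2 fold change of Fth1 was -0.08 (SE 0.15) in endothelial cells, 0.27 (SE 0.22) in microglia, -0.09 (SE 0.59) in OPCs and 0.10 (SE 0.23) in Schwann and meningeal nuclei. It was 0.68 (SE 0.31) in ependymal nuclei and -0.80 (SE 0.69) in fibroblasts, both from few nuclei.

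Ftl1 had its largest difference in Schwann and meningeal nuclei. The WT mice had 48.3 to 186 scaled CPM (median 103) and the SOD1G93A mice 78.4 to 425 (median 195). The ranges overlapped in 3 of 6 SOD1G93A mice, and the male mice of pools A and B reached 423 and 425. The WT values rested on 3 to 24 Ftl1 UMIs per mouse, the highest of them, in the male of pool B, on 3. The SOD1G93A mice had 22 to 432 UMIs. The log2 fold change was 1.16 (SE 0.26, limma FDR = 0.108). Summed with its copy Ftl1-ps1, an alternative chosen after the data were seen, it was 0.94 (SE 0.23, limma FDR = 0.279), so it did not pass. Ftl1 alone was called in the limma fit without the WT female of pool C (1.20, FDR = 0.0817), the SOD1G93A female of pool A (1.39, FDR = 0.0213), the SOD1G93A male of pool B (1.16, FDR = 0.0614) or the SOD1G93A male of pool C (1.20, FDR = 0.0668). Leaving out other single mice gave values down to 0.79, without the WT female of pool B, and FDR up to 0.989, without the WT male of pool A. In the other 4 types tested, Ftl1 lay between -0.06 in endothelial cells and 0.27 in astrocytes. The number of Schwann and meningeal nuclei also differed, 348 from WT and 683 from SOD1G93A mice, with 2096 and 3552 UMIs per nucleus. In these nuclei the 3 motor neuron markers summed to 39.8 to 162 CPM (median 95.4) in WT and 103 to 775 (median 138) in SOD1G93A mice, and ribosomal protein genes had medians of 7891 and 7036. The part of these in the difference of Ftl1 was not tested.

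The ratio of heavy to light chain UMIs needs no library size. It is a ratio of counts and not of protein chains. Reads of Ftl1 may have been assigned to its copy or left uncounted, and either would raise the ratio. In all nuclei of a type it was 37.7 in astrocytes, 35.7 in oligodendrocytes, 24.8 in neurons, 22.0 in microglia, 16.4 in Schwann and meningeal nuclei and 2.72 in endothelial cells. The value in Schwann and meningeal nuclei rested on the SOD1G93A male of pool A, with 432 of the 703 Ftl1 UMIs, and was 26.8 without it, so its place in this order is not settled. The median over the 12 mice was 34.6 there. Endothelial cells stood apart, with 1.81 to 3.60 over the 12 mice against 5.07 or more in every mouse of the other 5 types.

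By genotype, the ratio was compared in the 6 types with both genes in every mouse. In astrocytes it was 29.6 to 65.0 (median 35.4) in WT and 28.6 to 77.6 (median 50.0) in SOD1G93A mice. The ranges overlapped, and the log2 difference over the 6 pairs was 0.34 ± 0.58 (SD). A two-sided exact permutation test over sign flips gave p = 0.281 (adjusted p = 0.562). In Schwann and meningeal nuclei it was lower in 5 of 6 pairs, with a log2 difference of -0.95 ± 1.11 (exact permutation p = 0.125, adjusted p = 0.562). The WT ratios there rested on 3 to 24 Ftl1 UMIs per mouse. In oligodendrocytes, microglia, neurons and endothelial cells the log2 differences were 0.52, -0.38, 0.04 and -0.04, with adjusted p of 0.703, 0.562, 0.781 and 0.781 in the same exact test. In microglia it was lower in 5 of 6 pairs. The size turned on single pairs, with 0.19 in astrocytes without the females of pool A, and in microglia -0.09 without the females of pool C (8 and 6 Ftl1 UMIs) and -0.66 without the males of pool C. The value in oligodendrocytes rested on the SOD1G93A female of pool C, with 1 Ftl1 UMI and a ratio of 213, and was 0.01 without that pair. The smallest unadjusted p that 6 pairs allow is 0.0312, which becomes 0.188 for a lone type after adjustment over the 6, so this test could not show a difference in 1 type alone.

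**Figure D5:**
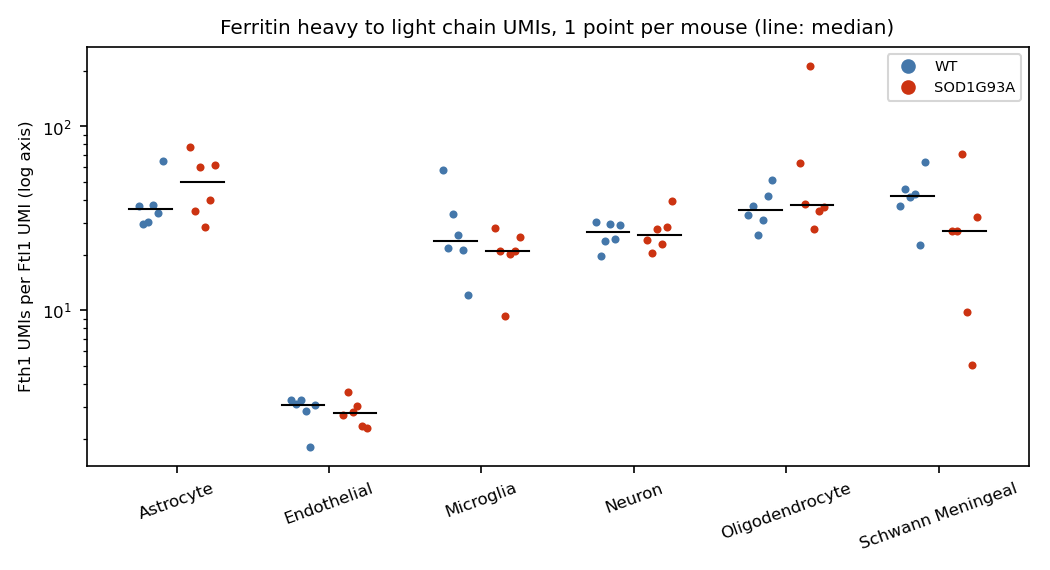
Fth1 UMIs per Ftl1 UMI (log axis) in the 6 cell types with both genes in every mouse, 1 point per mouse, WT in blue and SOD1G93A in red, with the median as a black line. Endothelial cells lie at 1.81 to 3.60, below every point of the other types, and the genotypes overlap in each type.

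Among the transport genes, Tfrc in neurons and Slc40a1 in endothelial cells had an unadjusted p under 0.05 in limma, and neither passed after adjustment. Tfrc in neurons was 42.8 to 60.2 scaled CPM (median 48.2) in WT and 35.0 to 44.9 (median 42.0) in SOD1G93A mice. The ranges overlapped, and the SOD1G93A mouse was lower in 6 of 6 pairs. The log2 fold change was -0.26 (SE 0.10, limma FDR = 1.00), and -0.17 without the WT female or without the SOD1G93A male of pool B. By pool the female and male pairs gave -0.18 and -0.19 in A, -0.55 and -0.55 in B, and -0.05 and -0.01 in C, and both pairs of pool B were the lowest. In dorsal excitatory and dorsal inhibitory (DI) neurons Tfrc was -0.34 (SE 0.12) and -0.40 (SE 0.13), lower in 6 of 6 pairs each, with limma FDR of 0.513 and 1.00. In the other classes it ran from -0.41 (SE 0.22) in mid inhibitory to 0.16 (SE 0.22) in ventral cholinergic neurons.

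The exporter Slc40a1 in endothelial cells was 312 to 579 scaled CPM (median 342) in WT and 150 to 358 (median 328) in SOD1G93A mice. The medians were close, and the lowest SOD1G93A mouse, the male of pool A, lay well below the rest. The log2 fold change was -0.40 (SE 0.19, limma FDR = 0.980), negative in 4 of 6 pairs, and -0.21 without that mouse. Tfrc in the same cells was 200 to 426 in WT and 237 to 489 in SOD1G93A mice, a log2 fold change of -0.01 (95% confidence interval -0.43 to 0.41). Cp there was 244 to 461 and 249 to 809, a log2 fold change of 0.16 (SE 0.24, limma FDR = 0.985). None of these 3 genes, all high in endothelial cells, passed the test with 6 mice a group. Over all genes, limma called 1 of 7637 there.

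The other estimates did not pass either. Tfrc was -0.33 (SE 0.18) in microglia, 0.24 (SE 0.20) in oligodendrocytes, 0.11 (SE 0.28) in motor neurons, -0.07 (SE 0.19) in astrocytes and -0.16 (SE 0.27) in Schwann and meningeal nuclei. Slc11a2 lay between -0.21 and 0.05 in 4 types. Cp was -0.56 (SE 0.32, limma FDR = 1.00) in oligodendrocytes, at 7.02 to 22.2 scaled CPM in WT and 4.76 to 16.5 in SOD1G93A mice, and between -0.54 and 0.24 in the other 5. Aco1 lay between -0.22 and 0.01 in 5 types. Ireb2 lay between -0.07 and 0.14 in 7 types, with a 95% confidence interval of -0.14 to 0.13 in neurons, and was 0.44 (SE 0.27) in motor neurons.

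In the 9 neuron classes the members were tested in 47 combinations, and 0 were called in limma, against 19 of 75459 gene tests (0.0252%). At an unadjusted p under 0.05 limma had 3 (6.38%, against 4.54% of all gene tests), and edgeR and DESeq2 called 0 with 2 each. Beside Tfrc in the 2 dorsal classes, this was Fth1 in mid excitatory (ME) neurons, 0.50 (SE 0.22, limma FDR = 0.994). In the 12 glial sub-clusters that could be fitted, 37 combinations gave 0 calls in limma, against 59 of 52270 gene tests (0.113%). With edgeR and DESeq2 there were also 0 calls, with 1 each at an unadjusted p under 0.05. In limma 2 (5.41%) had an unadjusted p under 0.05, against 5.65% of all gene tests. These were Fth1 in oligodendrocyte sub-cluster 2, 0.51 (SE 0.21), and Ireb2 in oligodendrocyte sub-cluster 0, -0.48 (SE 0.23).

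The sexes were compared over both genotypes. No member was called among 47 in limma, against 110 of 68984 gene tests (0.159%). At an unadjusted p under 0.05 limma had 4 (8.51%, against 5.56% of all gene tests), edgeR 0 calls with 5 and DESeq2 0 calls with 3. The 4 were Ftl1 in Schwann and meningeal nuclei, -0.90 (female minus male, log2, SE 0.26, limma FDR = 0.356), Ftl1 in endothelial cells, -0.44 (SE 0.17), Slc40a1 in endothelial cells, 0.41 (SE 0.19), and Cp in OPCs, -0.89 (SE 0.38). The difference of the genotype effects between the sexes gave 0 calls of 47 in limma, edgeR and DESeq2. Over all genes limma called 4 of 68984 gene tests (0.0058%). Each tool had 1 combination at an unadjusted p under 0.05 (2.13%, against 3.11% of all gene tests in limma). In limma this was Fth1 in Schwann and meningeal nuclei, where the genotype difference was 0.68 (SE 0.33) in females and -0.47 (SE 0.33) in males, a difference of -1.15 (SE 0.47, FDR = 0.993). In the neuron classes 0 of 47 were called in limma (0.0782% of all gene tests), with 1 at an unadjusted p under 0.05 (2.13%, against 4.08% of all gene tests). It was Fth1 in neurons of unclear class, 0.47 in males and -0.18 in females (limma FDR = 0.243). In the glial sub-clusters 0 of 37 were called in limma (0.00957% of all gene tests), with 4 at an unadjusted p under 0.05 (10.8%, against 3.98%), a count too small to set apart. The 4 were of Fth1, in the 3 astrocyte sub-clusters named above and in oligodendrocyte sub-cluster 2 (1.13 in females, -0.11 in males, limma FDR = 0.999).

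The wider pathway was read from a list of 56 other genes of iron handling, of which 46 passed the filter in at least 1 type. In 214 combinations of gene and type, limma called 0 for genotype, with 12 (5.61%) at an unadjusted p under 0.05 against 7.18% of all gene tests, while edgeR and DESeq2 called 0 with 11 and 4. Their median log2 fold change was 0.00, and 108 were above 0. By role, 20 combinations belonged to uptake and reduction, 11 to export, oxidation and hepcidin, 20 to storage and chaperones, 35 to regulation through iron-responsive elements, 73 to mitochondrial iron and iron-sulfur clusters and 55 to haem, with 1, 1, 1, 5, 3 and 1 at an unadjusted p under 0.05, counts too small to set against the 7.18%. Of the 5 for regulation, 4 were the same gene, Fbxl5, in 4 types. In the neuron classes 221 combinations gave 0 calls in limma, with 1 (0.452%) at an unadjusted p under 0.05 against 4.54% of all gene tests.

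Of the 30 genes of this list tested in astrocytes, 3 had an unadjusted p under 0.05 in limma, against 13.6% of all genes tested there. This count is too small to set apart, and the 3 are named after their values were seen. They were Iscu, the scaffold of iron-sulfur clusters (0.46, SE 0.19), the ferroxidase Heph (-0.36, SE 0.15) and the metal importer Slc39a14 (0.35, SE 0.15), with limma FDR of 0.273, 0.279 and 0.302. Fbxl5, which targets Ireb2 for degradation and is also named after its values were seen, was -0.22 (SE 0.09) in oligodendrocytes, -0.53 (SE 0.24) in OPCs and -0.26 (SE 0.12) in microglia but 0.60 (SE 0.29) in Schwann and meningeal nuclei, with limma FDR of 0.616 or above in all 4.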

How the data were processed

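Counts of UMIs per gene and nucleus were deposited by the authors, without normalization, from Cell Ranger 3.1 on a pre-mRNA reference of mm10, per the labels and the paper's methods, with mitochondrial genes removed. The authors assigned nuclei to mice by hashtag and removed nuclei with few genes, over 10% mitochondrial UMIs, or the tags of several mice. Doublets within 1 mouse were not marked. The percent of mitochondrial UMIs and the batch label (pool) of each nucleus are columns the authors deposited. The cell types, neuron classes and glial sub-clusters are the authors' own.

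The 9 genes, the pathway list and the tests were chosen with earlier results of these data known. UMIs were summed per mouse and class. Genes were filtered with filterByExpr (minimum count 10), scaled with TMMwsp factors, and fitted with limma 3.58.1 (voom, robust eBayes; R 4.3.3), with terms for the 4 groups of sex and genotype and for pool, since mice of 1 pool share preparation and sequencing. P values were adjusted over all genes of a class (Benjamini-Hochberg, FDR < 0.1). edgeR 4.0.16, DESeq2 1.42.0, other scalings and filters and leaving out each mouse were alternatives. The ferritin ratio used an exact permutation test over 6 pairs of mice of the same sex and pool, adjusted over 6 types. The rule for named genes took the 9 members, pathway genes called for genotype (there were none), and the 3 genes most like each member (log2 of CPM + 1, genes of at least 10 CPM in a type). Other pathway genes were named after their values were seen. On simulated astrocyte counts (9042 genes), the fit recovered 29.6% of 1.5-fold and 82.3% of 2-fold changes, against 11.6% and 53.2% in motor neurons (4842 genes) and 11.5% and 57.8% in Schwann and meningeal nuclei (5258 genes).

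Values that the text calls CPM without "scaled" use the plain library total. The deposited table of integrated values was not used. Some marker and pathway genes are not reported here.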

Additional observations from a re-analysis of the deposited data

Results flagged for a closer look

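Among 94 groups of mice (each tested member, cell type and genotype), Dixon's ratio marked 1 mouse far from the others in 5, and chance alone marks about 1 in 20. Cp in endothelial cells was 809 scaled CPM in the SOD1G93A male of pool A, with 412 in the next mouse (ratio 0.710). Cp in fibroblasts was 2557 in the SOD1G93A female of pool A, with 858 next (0.718, 5 mice). Fth1 in OPCs was 1078 in the WT male of pool C, with 292 next (0.823). Ftl1 in astrocytes was 18.3 in the WT male of pool C, with 36.5 next (0.653). Ireb2 in oligodendrocytes was 52.8 in the SOD1G93A male of pool C, with 77.2 next (0.689).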

How the results depend on the processing

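Fth1 in astrocytes was called in 20 of 21 alternatives, with log2 fold changes of 0.51 to 0.64 when 1 mouse was left out (FDR 0.000701 to 0.0433). The exception, added after the data were seen, was the fit to nuclei with at most 1% mitochondrial UMIs (0.69, FDR = 0.173), which left 0 calls over the cell types. With the mix of astrocyte sub-clusters held, also added later, the difference over pairs was 0.0300 (log2), which cannot tell level from mix. Leaving out 1 mouse gave 1 to 3 genotype calls, 0 to 1 sex calls (Cp in OPCs without the WT male of pool B) and 0 to 1 pathway calls (Iscu in astrocytes without the WT female of pool B). Without a filter on low counts, 2 members in the glial sub-clusters were called, Slc40a1 on 6 UMIs and Trf on 1, too few to read as differences. In motor neurons 2 pathway genes were called (Pcbp1 and Hmox1). The fit without the replicate block (no pool term) changed no call of a member.

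Of the 46 other genotype estimates, 2 were called in an alternative (Fth1 in motor neurons, Ftl1 in Schwann and meningeal nuclei), and 27 changed sign in at least 1. The ferritin ratio changed sign in endothelial cells without the pairs FA, FC or MC (0.0105, 0.00106 and 0.0379, log2) and in neurons without MC (-0.0382). Over the pairs left out, it ran from -0.118 to 0.0379 and from -0.0382 to 0.120. As a mean over single nuclei, Fth1 in Schwann and meningeal nuclei was 5647 CPM, and with TMM factors over all types Aco1 in oligodendrocytes was 50.6. Few nuclei of motor neurons, OPCs, ependymal cells and fibroblasts limit the estimates there.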
